A study of Homo sapiens with 15 samples.

Results

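Medroxyprogesterone acetate (MPA) and dexamethasone (DEX) were compared directly, at one dose and one time, in ZR-75-1 cells, a human breast cancer cell line grown in RPMI-1640 medium with fetal bovine serum. The comparison rests on 6 of the 15 arrays of the series, 3 from cells given 10 nM MPA and 3 from cells given 10 nM DEX, each for 6 h. The arrays were chosen by their labelled treatment alone. The other arrays came from cells given 10 nM progesterone (PROG, 3 arrays) or 10 nM dihydrotestosterone (DHT, 3 arrays) for 6 h, and from cells given the vehicle, 0.1% ethanol, for 6 h, which the labels also call untreated (3 arrays). All 5 groups share the cell line, the medium and the time, and no gene was altered in any of them. Total RNA was measured on whole-transcript Affymetrix arrays, and each level below is a log2 probe set intensity as deposited. Whether the 3 arrays of a group came from separate cultures is not stated, so p-values measure the spread between arrays only, and that spread may be technical.

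MPA is a synthetic progestin built on the skeleton of progesterone with an added methyl group and an esterified hydroxyl group. DEX is a synthetic glucocorticoid, a fluorinated and methylated relative of cortisol with hydroxyl groups and a ring double bond that MPA lacks. Steroid hormones of this kind enter the cell and bind receptors of one family, which move to DNA and change transcription of nearby genes. The receptors for progesterone, glucocorticoids and androgens recognise closely related DNA elements. MPA is known to bind the receptors for glucocorticoids and androgens besides the progesterone receptor, whereas DEX acts mainly through the glucocorticoid receptor. In luminal breast cancer cells the estrogen receptor drives growth, and the progesterone receptor is itself one of its target genes.

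The cells carried the luminal epithelial markers that the label of the line implies. KRT18, a keratin of simple epithelia, had levels of 12.15, 12.06 and 12.09 on the MPA arrays and 12.13, 12.12 and 12.17 on the DEX arrays. EPCAM, an epithelial adhesion molecule, had levels of 10.61, 10.58 and 10.63 on the MPA arrays and 10.61, 10.60 and 10.60 on the DEX arrays. Both sat far above the medians of single arrays, which ran between 3.69 and 3.73 over the 15 arrays. The mean over 17 luminal markers was 9.31 to 9.36 on the MPA arrays and 9.34 to 9.39 on the DEX arrays. The mean over 6 basal markers was 4.31 to 4.35 on the MPA arrays and 4.21 to 4.23 on the DEX arrays, the one marker list whose ranges did not overlap, with EGFR its 1 called member. The mean over 4 fibroblast markers was 4.11 to 4.17 on the MPA arrays and 4.16 to 4.27 on the DEX arrays, and over 6 blood or endothelial markers it was 4.20 to 4.27 on the MPA arrays and 4.17 to 4.28 on the DEX arrays. Arrays of one group correlated with one another at 0.9971 to 0.9978 over all 34878 deposited probe sets, and MPA arrays with DEX arrays at 0.9962 to 0.997. No array stood apart.

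Cells given MPA and cells given DEX differed at 602 of the 14841 probe sets that carry a gene symbol, or 4.06%. A probe set was called where the moderated test of limma gave an adjusted p below 0.05 over all of these probe sets. MPA was higher at 369 of them (2.49%) and lower at 233 (1.57%). The differences were unequal in size. A difference of at least 1.5-fold was found at 92 called probe sets (0.62%), of which 84 were higher with MPA (0.566%) and 8 lower (0.0539%). A difference of at least 2-fold was found at 25 called probe sets that were higher with MPA and at 0 that were lower. The median called difference was 0.36 where MPA was higher and -0.28 where it was lower, and the extremes were 2.17 and -0.83. The 3 MPA arrays lay wholly outside the range of the 3 DEX arrays at 368 of the 369 and at 231 of the 233. Over all 14841 probe sets that separation was seen at 7.65% with MPA above and at 9.97% with MPA below. The number lower with MPA depended on single arrays, at 144 without MPA array 1 and 130 without DEX array 3.

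**Figure D1:**
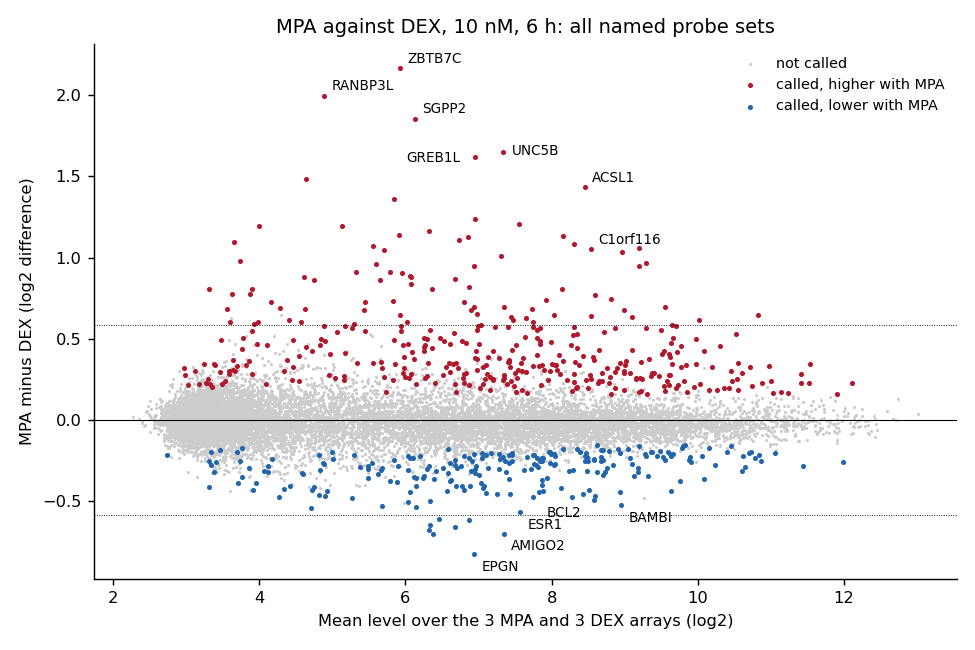
Difference between MPA and DEX (MPA minus DEX, log2) against the mean level over the 6 arrays (log2) for the 14841 named probe sets, with called ones in colour and dotted lines at a 1.5-fold difference. The upper side reaches 2.17 and holds 84 called probe sets beyond its line, while the lower side reaches -0.83 and holds 8.

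The 15 genes with the largest differences were all higher with MPA. Genes were named for size only where the 3 MPA arrays lay wholly on one side of the 3 DEX arrays. ZBTB7C, a zinc finger transcription repressor of the BTB family, had levels of 6.81, 7.03 and 7.19 on the MPA arrays, against 4.79, 4.93 and 4.81 on the DEX arrays. The lowest MPA array stood well above the highest DEX array, and the DEX arrays lay close to the vehicle mean of 4.73. The difference was 2.17 ± 0.12 (SE, n = 3 each), or 4.49-fold, with an adjusted p of 7.61e-08. RANBP3L, a Ran-binding protein, had levels of 5.88, 6.05 and 5.74 on the MPA arrays, against 3.94, 3.90 and 3.84 on the DEX arrays. Its groups were again far apart, with DEX levels just over the array medians, and it was 3.99-fold higher with MPA (2.00 ± 0.097, adjusted p = 2.66e-08). SGPP2, a phosphatase that degrades sphingosine-1-phosphate, had levels of 7.10, 6.92 and 7.17 on the MPA arrays, against 5.29, 5.36 and 4.97 on the DEX arrays. It was 3.62-fold higher with MPA (1.86 ± 0.11, adjusted p = 1.62e-07), and its vehicle mean of 5.13 lay among the DEX arrays.

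UNC5B, a receptor for the guidance cue netrin, had levels of 8.20, 8.16 and 8.12 on the MPA arrays, against 6.59, 6.44 and 6.49 on the DEX arrays. It was 3.15-fold higher with MPA (1.65 ± 0.080, adjusted p = 2.66e-08). GREB1L, a relative of the estrogen-induced gene GREB1, had levels of 7.65, 7.80 and 7.82 on the MPA arrays, against 6.21, 6.08 and 6.12 on the DEX arrays. It was 3.07-fold higher with MPA (1.62 ± 0.087, adjusted p = 5.04e-08). For both genes the MPA arrays were tight and all above the DEX arrays, and the vehicle means, 6.45 for UNC5B and 6.06 for GREB1L, lay close to the DEX arrays. ACSL1, the enzyme that activates long-chain fatty acids with coenzyme A, had levels of 9.20, 9.17 and 9.14 on the MPA arrays, against 7.72, 7.75 and 7.74 on the DEX arrays. Its arrays hardly varied within a group, and its adjusted p of 1.41e-09 was the smallest among the genes named here (1.43 ± 0.050, 2.70-fold).

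The rest of the 15 largest differences upward ran between 1.13 and 1.48. CSRNP1, a nuclear protein of the cysteine and serine rich family, was 2.57-fold higher with MPA, and ACOT6, an acyl-CoA thioesterase, 2.80-fold. CLDN8, a claudin of tight junctions, had levels of 7.62, 7.60 and 7.49 on the MPA arrays, against 6.29, 6.23 and 6.47 on the DEX arrays, and both sets lay above its vehicle mean of 5.55. F2R, the main thrombin receptor, was 2.24-fold higher with MPA, PLLP, a membrane protein of myelin and epithelia, 2.29-fold, and FHDC1, an actin and microtubule regulator of the formin type, 2.19-fold. ANKRD22 was 2.31-fold higher. NDRG1, a gene of stress and differentiation responses, was the least even, with levels of 7.01, 6.03 and 6.40 on the MPA arrays, against 5.28, 5.32 and 5.42 on the DEX arrays (1.14 ± 0.17, adjusted p = 0.0011, and 0.0518 with the 6 arrays fitted alone). P3H2, a collagen prolyl hydroxylase, had levels of 4.73, 4.30 and 4.76 on the MPA arrays, while its DEX arrays at 3.56, 3.32 and 3.32 lay under the array medians, so no fold is given for it.

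**Figure D2:**
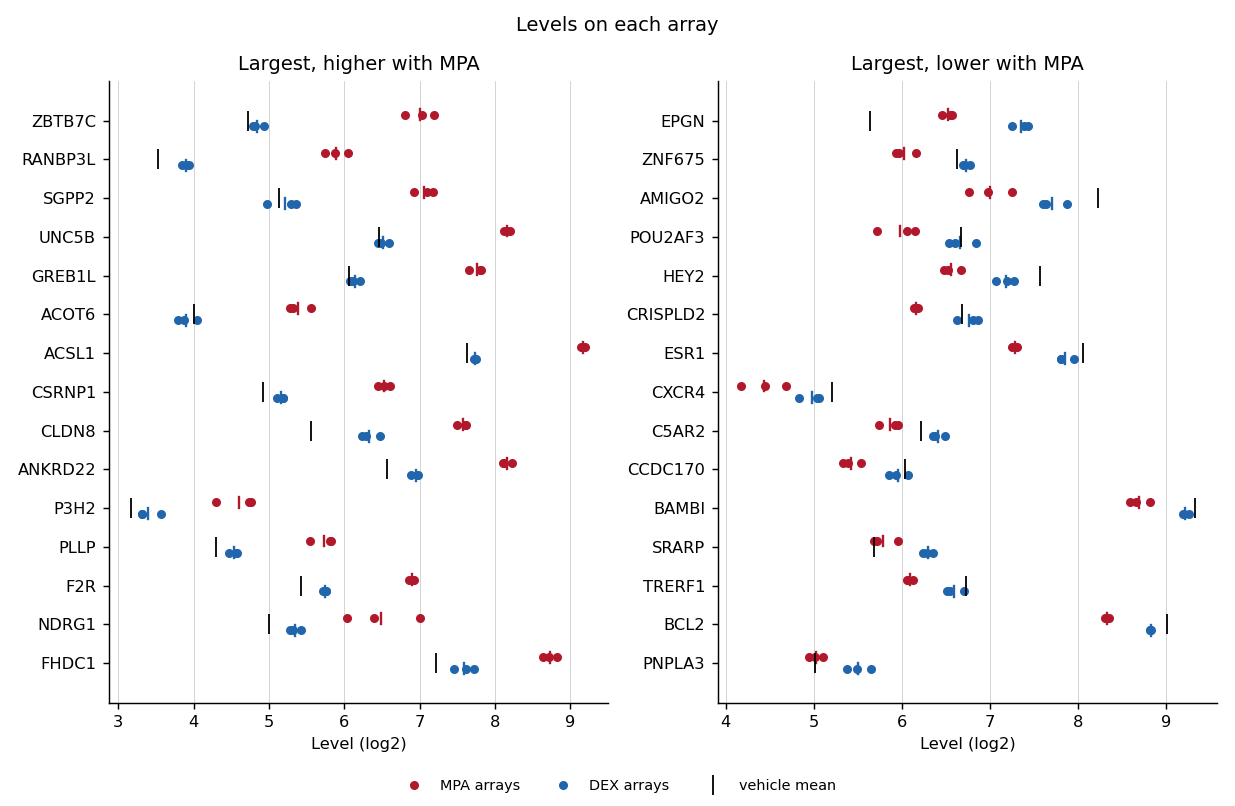
Level (log2) on each MPA and DEX array for the 15 largest called differences in each direction, with short coloured bars at the group means and black bars at the vehicle mean. As the choice of genes required, the 3 MPA arrays lie on one side of the 3 DEX arrays in each gene, from ZBTB7C at the top left to PNPLA3 at the bottom right.

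Among the genes lower with MPA than with DEX, both directions against vehicle occurred. EPGN, or epigen, a ligand of the EGF receptor, had levels of 6.45, 6.57 and 6.55 on the MPA arrays, against 7.25, 7.38 and 7.43 on the DEX arrays. Every DEX array exceeded every MPA array, and both groups exceeded the vehicle mean of 5.64. EPGN was 1.78-fold higher with DEX (MPA minus DEX -0.83 ± 0.11, adjusted p = 2.82e-04). SRARP, a protein that binds steroid receptors, had levels of 5.72, 5.68 and 5.96 on the MPA arrays and 6.24, 6.35 and 6.29 on the DEX arrays. PNPLA3, a lipid droplet lipase, had levels of 4.95, 5.11 and 5.01 on the MPA arrays and 5.49, 5.38 and 5.65 on the DEX arrays. For both of these genes the MPA arrays sat around the vehicle means, 5.69 for SRARP and 5.02 for PNPLA3, with the DEX arrays above them (adjusted p for MPA minus DEX 4.85e-04 and 0.00185).

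Most of the other large differences downward belonged to genes whose MPA level was under the vehicle level. AMIGO2, a leucine-rich adhesion protein, had levels of 6.76, 7.25 and 6.98 on the MPA arrays and 7.60, 7.63 and 7.87 on the DEX arrays, under a vehicle mean of 8.23. HEY2, a repressor that Notch signalling induces, had levels of 6.48, 6.52 and 6.67 on the MPA arrays and 7.07, 7.19 and 7.27 on the DEX arrays, under a vehicle mean of 7.56. In both genes the order was MPA lowest, then DEX, then vehicle. The choice of genes required that MPA and DEX arrays not overlap. BAMBI, a decoy receptor that dampens BMP and activin signals, differed by -0.53 ± 0.053, TRERF1, a zinc finger co-regulator, by -0.50 ± 0.060, and C5AR2, a receptor for complement fragments, by -0.54 ± 0.069. POU2AF3, a coactivator of the transcription factor POU2F3, had levels of 5.72, 6.15 and 6.06 on the MPA arrays and 6.53, 6.84 and 6.60 on the DEX arrays (-0.68 ± 0.11, adjusted p = 0.00228). POU2F3 itself was named after its value was seen, and it was lower with MPA too, at -0.43 ± 0.066 (adjusted p = 0.00125). ZNF675, a zinc finger gene, was lower, at -0.71 ± 0.15 (adjusted p = 0.0155), but its adjusted p was above the threshold without MPA array 2 (0.0547), MPA array 3 (0.0643), DEX array 2 (0.0579) or DEX array 3 (0.0524).

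Promoter sequence is shown for 4 of these genes so that their levels can be set beside the letters upstream of their start sites. The windows are the 250 bases before a start site in the RefSeq promoters of GRCh38.p14, and capitals mark matches. Of the 93 genes named by rule, 78 had a promoter in that table. A palindromic steroid receptor element, searched as GNACANNNTGTNC, which reads the same on both strands, matched 1 of the genes named by rule, EPHA4, a receptor of the ephrin system that was lower with MPA. That element was found in 115 of 35116 promoters (0.327%). A separate motif, the half-site AGAACA on either strand (TGTTCT on the other), was found in 4350 of 35116 promoters (12.4%). The palindromic search did not require this half-site. Among the promoters of genes named by rule it was in 12 of 121 (9.92%), those of CSRNP1 and ESR1 included. It was present in one promoter each of SGPP2, ACSL1 and EPGN, which were picked for display after their values and matches were seen. A match is a description of letters and not a binding site. Other RefSeq promoters of SGPP2, ACSL1 and EPHA4 held no match of either motif.
SGPP2 (chr2:222423738-222423987, plus strand): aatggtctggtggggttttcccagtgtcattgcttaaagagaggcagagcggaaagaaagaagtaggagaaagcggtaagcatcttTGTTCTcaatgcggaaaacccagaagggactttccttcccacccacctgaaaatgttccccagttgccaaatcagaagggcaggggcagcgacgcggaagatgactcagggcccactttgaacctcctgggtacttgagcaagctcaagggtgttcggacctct
ACSL1 (chr4:184812252-184812501, minus strand): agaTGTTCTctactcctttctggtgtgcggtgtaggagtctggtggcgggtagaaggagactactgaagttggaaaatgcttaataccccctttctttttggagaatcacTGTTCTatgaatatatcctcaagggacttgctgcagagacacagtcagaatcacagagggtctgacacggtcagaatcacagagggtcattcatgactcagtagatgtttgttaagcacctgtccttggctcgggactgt
EPGN (chr4:74308220-74308469, plus strand): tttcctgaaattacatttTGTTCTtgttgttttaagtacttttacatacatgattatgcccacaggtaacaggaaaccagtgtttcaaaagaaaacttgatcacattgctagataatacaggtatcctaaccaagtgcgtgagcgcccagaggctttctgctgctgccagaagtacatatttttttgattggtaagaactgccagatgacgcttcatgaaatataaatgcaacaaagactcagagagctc
EPHA4 (chr2:221574203-221574452, minus strand): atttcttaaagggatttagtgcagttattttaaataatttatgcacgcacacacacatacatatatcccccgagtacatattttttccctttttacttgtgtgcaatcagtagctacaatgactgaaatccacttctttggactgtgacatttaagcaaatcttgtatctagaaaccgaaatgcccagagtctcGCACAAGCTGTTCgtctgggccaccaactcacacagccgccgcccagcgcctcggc

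The same motifs were counted over the promoters of all called genes. The palindromic element was in 0 of 466 promoters of genes higher with MPA, in 2 of 287 of genes lower with MPA (0.697%) and in 32 of 14780 of measured genes (0.217%). The half-site AGAACA was in 38 of the 466 (8.15%), in 21 of the 287 (7.32%) and in 1377 of the 14780 (9.32%). EPHA4 had levels of 4.54, 4.75 and 4.84 on the MPA arrays and 5.30, 5.16 and 4.98 on the DEX arrays (-0.44 ± 0.10, adjusted p = 0.0234). The groups did not overlap, as the choice of genes required. Its adjusted p was above the threshold without MPA array 1 (0.108), DEX array 1 (0.102) or DEX array 2 (0.0741).

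Levels under progesterone and dihydrotestosterone place these genes among the other steroids of the series. At 68 of the 84 probe sets called and at least 1.5-fold higher with MPA (81.0%), the PROG mean lay on the MPA side of the midpoint between the MPA and DEX means. The DHT mean did so at 5 of the 84 (5.95%) and the vehicle mean at 0. Among all 369 probe sets higher with MPA the PROG mean was on the MPA side at 257 (69.6%), the DHT mean at 53 (14.4%) and the vehicle mean at 11 (2.98%). Among the 233 lower with MPA the PROG mean was on the MPA side at 129 (55.4%), the DHT mean at 90 (38.6%) and the vehicle mean at 67 (28.8%). These are positions of group means, given with no test. ZBTB7C had a PROG mean of 6.79, close to MPA, whereas SGPP2 (6.41) and UNC5B (7.33) had PROG means between those of MPA and DEX. RANBP3L had a PROG mean of 4.47 and a DHT mean of 4.79, both between the MPA and DEX arrays. ATP13A4, a transport ATPase, had levels of 6.14, 6.33 and 6.23 on the MPA arrays, against 5.36, 5.09 and 5.11 on the DEX arrays, with PROG, DHT and vehicle means of 5.30, 5.30 and 5.24. Its MPA arrays thus stood alone above the means of the other 4 groups.

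**Figure D3:**
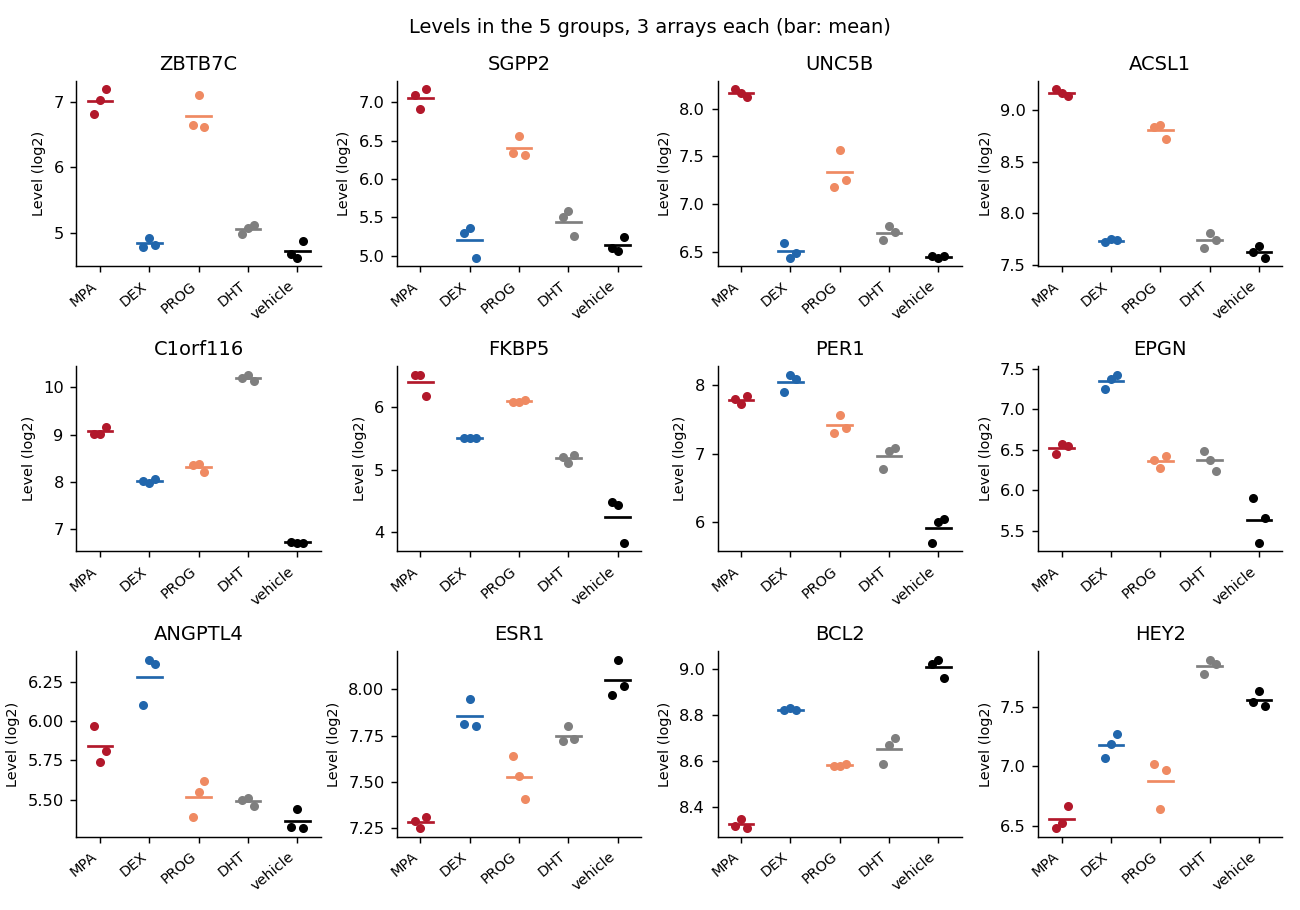
Level (log2) on each of the 15 arrays for 12 genes, with a bar at each group's mean. The first row (ZBTB7C, SGPP2, UNC5B, ACSL1) has MPA and PROG high with DEX near vehicle, C1orf116 is highest under DHT, and EPGN and ANGPTL4 are highest under DEX.

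Genes listed as progestin-induced, androgen-induced or glucocorticoid-induced were compared next. Lists of genes were read at 1 probe set per gene, against a background of 600 called genes of 14361 (4.18%), with 367 higher (2.56%) and 233 lower (1.62%), and a median difference of -0.01 over all genes. The share called rose with level, from 0.747% of genes with a mean under 3.7 to 7.37% with a mean of 8 or more. The background was not matched to the levels of list members. These lists were written with earlier results of the data known, and some members were placed on them for their response here, so their counts are descriptions. Among 25 measured progestin-induced genes, 11 were higher with MPA, 0 were lower and 14 were not called, with a median difference of 0.15. Among 28 androgen-induced genes, 13 were higher with MPA, 0 were lower and 15 were not called, with a median of 0.26. Among 29 glucocorticoid-induced genes, 10 were higher with MPA, 3 were lower and 16 were not called, with a median of 0.08. The progestin and glucocorticoid lists share 3 measured genes (ACSL1, FOXO1 and IGFBP1), and the androgen and glucocorticoid lists share 2 (FKBP5 and SGK1).

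In the progestin list, THBS1, the matrix glycoprotein thrombospondin, had levels of 9.47, 9.53 and 9.46 on the MPA arrays, against 8.34, 8.49 and 8.52 on the DEX arrays. It was 2.05-fold higher with MPA (1.04 ± 0.052, adjusted p = 3.47e-08). HSD11B2, the enzyme that inactivates cortisol, had levels of 9.04, 8.95 and 8.93 on the MPA arrays, against 8.17, 8.20 and 8.25 on the DEX arrays. Both groups of HSD11B2 lay above the vehicle mean of 7.27, and MPA was 1.70-fold above DEX (adjusted p = 4.58e-06). STAT5A, a mediator of prolactin signals, had levels of 5.44, 5.25 and 4.84 on the MPA arrays and 4.50, 4.13 and 4.31 on the DEX arrays. Its difference of 0.86 ± 0.18 (adjusted p = 0.0137) missed the threshold without MPA array 1, MPA array 2 or DEX array 2, with adjusted p up to 0.0700. STAT5B was counted among the 11 at an adjusted p of 0.0493. It missed the threshold when any one of the 6 arrays was left out (0.0683 to 0.169). EMP1, a membrane protein of epithelia, differed by 0.95 ± 0.089 (adjusted p = 1.23e-05).

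In the androgen list, C1orf116 had levels of 9.02, 9.02 and 9.17 on the MPA arrays, against 8.02, 7.97 and 8.07 on the DEX arrays. The MPA arrays were all higher, and both groups lay between the vehicle mean of 6.72 and the DHT mean of 10.20. MPA was 2.07-fold above DEX (1.05 ± 0.056, adjusted p = 5.02e-08). AQP3, a channel for water and glycerol, was 2.18-fold higher with MPA (1.13 ± 0.11, adjusted p = 1.76e-05), and EAF2, an elongation factor partner, 2.12-fold (1.08 ± 0.062, adjusted p = 9.56e-08). CLDN8 also had a high DHT mean, 7.58, level with its MPA arrays. STEAP4, a metalloreductase, had levels of 6.15, 6.22 and 6.25 on the MPA arrays and 5.65, 5.68 and 5.65 on the DEX arrays, which did not overlap (0.55 ± 0.069, adjusted p = 2.29e-04). ZBTB10, a zinc finger gene of the BTB family, was called in the fit of all arrays at an adjusted p of 0.0397 and missed the threshold when any one of the 6 arrays was left out (0.0622 to 0.15).

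The glucocorticoid list held genes in all 3 positions: higher with MPA, higher with DEX and not called. FKBP5, a co-chaperone of steroid receptors, had levels of 6.52, 6.52 and 6.18 on the MPA arrays, against 5.50, 5.51 and 5.50 on the DEX arrays. Every array of either compound was above the vehicle mean of 4.25, and MPA was 1.87-fold above DEX (0.90 ± 0.13, adjusted p = 9.1e-04). GLUL, or glutamine synthetase, was 1.5-fold higher with MPA (0.59 ± 0.047, adjusted p = 2.66e-06). MT2A, a metal-binding metallothionein, was 1.32-fold higher (0.40 ± 0.046, adjusted p = 8.94e-05), the 1 called among 10 measured metallothioneins. KLF9, a zinc finger factor, had levels of 7.23, 6.99 and 7.29 on the MPA arrays and 6.90, 6.69 and 6.79 on the DEX arrays, above a vehicle mean of 5.70. Its small difference, 0.38 ± 0.092 (adjusted p = 0.0333), missed the threshold without MPA array 1 (0.117), MPA array 3 (0.13), DEX array 2 (0.128) or DEX array 3 (0.0968). SGK1, a kinase that regulates sodium transport, was called at an adjusted p of 0.0137, but all its MPA and DEX levels (2.93 to 3.35) were under the array medians. The SGK1 call was lost without MPA array 3 (0.0654), DEX array 1 (0.0544) or DEX array 2 (0.0619). TAT was called higher with MPA at an adjusted p of 0.0377, with means of 3.39 and 3.16, also under the array medians. The TAT call was lost without MPA array 1, MPA array 2, DEX array 1 or DEX array 3, with adjusted p up to 0.153.

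The 3 glucocorticoid-induced genes that were higher with DEX encode secreted proteins. CRISPLD2, which binds bacterial lipopolysaccharide, had levels of 6.18, 6.15 and 6.14 on the MPA arrays and 6.86, 6.81 and 6.63 on the DEX arrays. The MPA arrays were all under the vehicle mean of 6.69 while the DEX mean was 0.08 above it, and the compounds differed by -0.61 ± 0.060 (adjusted p = 1.95e-05). ANGPTL4, a secreted inhibitor of lipoprotein lipase, had levels of 5.97, 5.74 and 5.81 on the MPA arrays and 6.10, 6.39 and 6.36 on the DEX arrays. Both groups of ANGPTL4 were above the vehicle mean of 5.36, and DEX was 1.36-fold above MPA (MPA minus DEX -0.44 ± 0.082, adjusted p = 0.00516, and 0.0734 with the 6 arrays fitted alone). EDN1, the vasoconstrictor peptide endothelin, had levels of 8.41, 8.33 and 8.62 on the MPA arrays and 8.70, 8.79 and 8.84 on the DEX arrays (-0.32 ± 0.072, adjusted p = 0.0188). Its vehicle mean of 8.73 lay among the DEX arrays and above all MPA arrays. The EDN1 call was lost without MPA array 1, MPA array 2, DEX array 2 or DEX array 3, with adjusted p up to 0.0883.

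The glucocorticoid-induced genes PER1, BCL6, DUSP1 and IRS2 were above vehicle with both compounds and were not called between them. PER1, a repressor of the circadian clock, had levels of 7.80, 7.73 and 7.85 on the MPA arrays and 7.90, 8.16 and 8.09 on the DEX arrays, against a vehicle mean of 5.91. All DEX arrays were above all MPA arrays, but the difference of -0.26 had a 95% interval of -0.48 to -0.03 and an adjusted p of 0.246. BCL6, a transcription repressor, had levels of 9.02, 8.97 and 9.12 on the MPA arrays and 8.99, 8.96 and 8.95 on the DEX arrays, against a vehicle mean of 7.95. Its groups overlapped, and its difference of 0.07 had an interval of -0.04 to 0.18. DUSP1, a phosphatase that switches off MAP kinases, differed by -0.02 with an interval of -0.15 to 0.10. IRS2, an adaptor of insulin signalling, differed by 0.23 with an interval of 0.07 to 0.38 and an adjusted p of 0.108. MT1X, a metallothionein of the same list, lay 0.17 above the vehicle mean with MPA and 0.20 above it with DEX, and the compounds differed by -0.03 with an interval of -0.16 to 0.10. PIP, a secreted apocrine protein from the androgen list, lay 0.22 above the vehicle mean with MPA and 0.30 above it with DEX, a difference of -0.08 with an interval of -0.22 to 0.07. A p above the threshold does not show that the compounds act alike on these genes, and the intervals give the range of differences left by these arrays. ZBTB16, a strong glucocorticoid target in other tissues, was under the array medians in both groups.

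**Figure D4:**
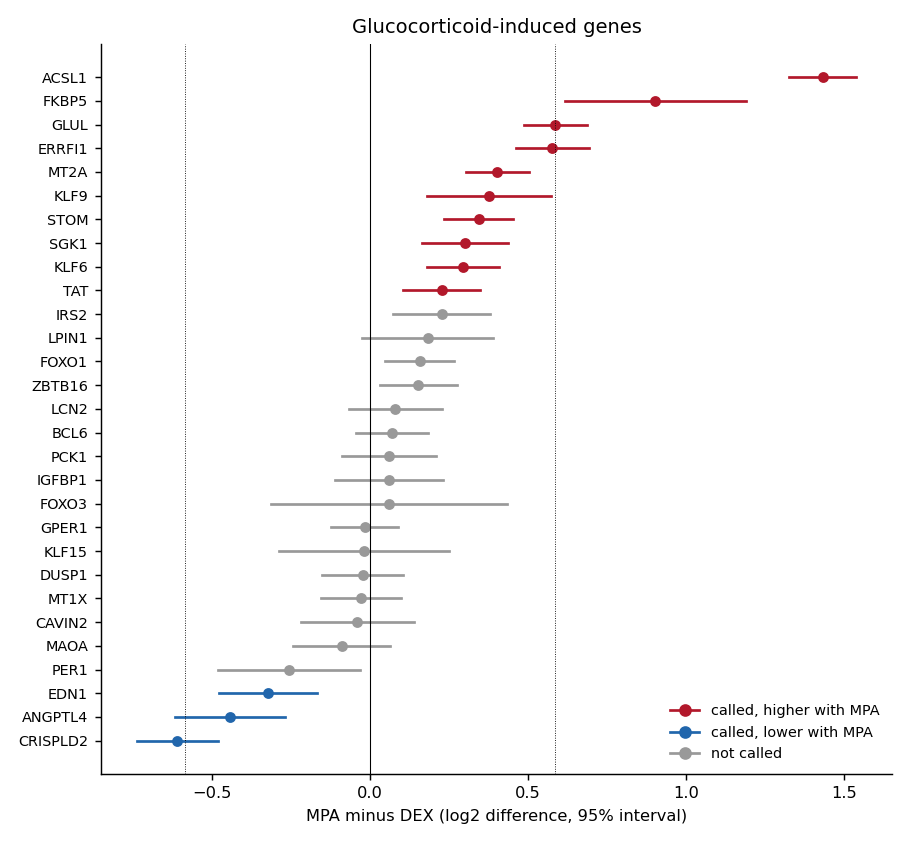
Difference between MPA and DEX (MPA minus DEX, log2) with its 95% interval for the 29 measured glucocorticoid-induced genes, ordered by size, with dotted lines at a 1.5-fold difference. The points run from ACSL1 at 1.43 down to CRISPLD2 at -0.61, with 16 genes not called between them.

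Precision over the whole array can be read the same way. The 95% interval of the difference lay within 1.5-fold in either direction at 14484 of 14841 probe sets (97.6%), and its median half-width was 0.14. The intervals are per probe set and not adjusted for their number, and dim probe sets have compressed differences. MPA and DEX were the 1 pair of compounds tested here, and p-values are not adjusted over pairs. PROG and DHT were given at the same dose and time, but pairs with them were not tested.

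In the list of steroid receptors and co-regulators, the called genes were lower with MPA. The co-chaperone FKBP5 and the co-regulator GREB1, which are on other lists, were higher. Of 15 measured steroid receptors and co-regulators, 3 were lower with MPA, 0 were higher and 12 were not called, with a median of -0.04. ESR1, the estrogen receptor, had levels of 7.29, 7.25 and 7.31 on the MPA arrays and 7.81, 7.95 and 7.80 on the DEX arrays. The MPA arrays were the lower ones with no overlap, as the choice of genes required, and the vehicle mean was 8.05. The difference was -0.57 ± 0.065 (adjusted p = 8.94e-05). PGR, the progesterone receptor, had levels of 7.63, 7.69 and 7.66 on the MPA arrays and 8.22, 8.06 and 8.02 on the DEX arrays, under a vehicle mean of 8.30 (-0.44 ± 0.056, adjusted p = 2.47e-04). FOXA1, a factor that opens chromatin for these receptors, differed by -0.23 ± 0.047 (adjusted p = 0.0109). Its adjusted p was 0.0521 without DEX array 2 and 0.0689 with the 6 arrays fitted alone. Of 17 luminal markers, AGR3, a protein disulfide isomerase of luminal cells, was higher with MPA (0.64 ± 0.099, adjusted p = 0.0013), ESR1, PGR and FOXA1 were lower, and 13 were not called.

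Estrogen-induced genes did not share a direction. Of 29 measured, 3 were higher with MPA, 2 were lower and 24 were not called, with a median of -0.01. GREB1, an estrogen-induced co-regulator of growth, had levels of 10.38, 10.26 and 10.25 on the MPA arrays and 9.86, 9.89 and 9.86 on the DEX arrays. Both groups were above the vehicle mean of 9.43, and MPA was the higher (0.43 ± 0.047, adjusted p = 6.06e-05). RAPGEFL1, a guanine nucleotide exchange factor, was higher by 0.35 ± 0.072 (adjusted p = 0.0113). E2F1, a factor of S-phase entry, was higher by 0.24 ± 0.061 (adjusted p = 0.0449) and missed the threshold without MPA array 1, MPA array 3 or any one of the DEX arrays (0.066 to 0.18). CISH, a brake on cytokine signals, was lower, at -0.21 ± 0.043 (adjusted p = 0.0102), as was PGR, and CISH missed the threshold without DEX array 3 (0.0573), which leaves 1 lower gene. Of 17 enzymes of steroid metabolism, HSD11B2, HPGD and STARD3 were higher with MPA and 14 were not called. STARD3, a cholesterol transporter, was called at an adjusted p of 0.0424 but not when any array but DEX array 2 was left out (0.0699 to 0.146). HPGD, which degrades prostaglandins, had levels of 4.55, 4.53 and 4.50 on the MPA arrays and 3.71, 3.75 and 3.95 on the DEX arrays.

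Of 12 EGF family ligands and receptors, 3 were higher with MPA, 1 was lower and 8 were not called. EGFR, the EGF receptor, had levels of 7.73, 7.78 and 7.78 on the MPA arrays, against 7.12, 7.14 and 7.12 on the DEX arrays. EGF, a ligand of that receptor, had levels of 7.78, 7.82 and 7.72 on the MPA arrays, against 7.13, 7.14 and 7.21 on the DEX arrays. Receptor and ligand were thus both higher with MPA with tight groups (EGFR 0.64 ± 0.049, adjusted p = 2.13e-06, and EGF 0.61 ± 0.050, adjusted p = 2.98e-06), whereas the ligand EPGN was higher with DEX. HBEGF, another ligand, was higher with MPA at an adjusted p of 0.0492 and missed the threshold when any array but MPA array 1 was left out (0.0734 to 0.185).

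Of 27 feedback genes of growth factor signalling, 5 were higher with MPA, 2 were lower and 20 were not called, with a median of 0.06. SPRY4, an inhibitor of receptor tyrosine kinase signals, had levels of 7.15, 7.33 and 7.37 on the MPA arrays, against 6.49, 6.55 and 6.36 on the DEX arrays (0.82 ± 0.091, adjusted p = 7.47e-05). ERRFI1, which inhibits EGFR, had levels of 10.06, 10.01 and 9.91 on the MPA arrays, against 9.43, 9.35 and 9.47 on the DEX arrays (0.58 ± 0.053, adjusted p = 1.14e-05). SPRY2 was higher by 0.49 ± 0.082 and the adaptor GRB7 by 0.32 ± 0.055. As the choice of genes required, all of these inhibitors and adaptors had their 3 MPA arrays above their 3 DEX arrays. DUSP5, the remaining higher gene, differed by 0.27 ± 0.065 (adjusted p = 0.0282). Its call was lost without MPA array 1, MPA array 3, DEX array 1 or DEX array 2, with adjusted p up to 0.116. The 2 lower genes were CISH and IGF1R, the receptor for insulin-like growth factors. Of these 2, 1 was called without MPA array 1, MPA array 2 or DEX array 2, and 0 without DEX array 3.

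Of 27 immediate early genes, which respond first to growth signals, 7 were higher with MPA, 1 was lower and 19 were not called, with a median of 0.10. JUN, a subunit of the factor AP-1, had levels of 7.15, 7.42 and 7.41 on the MPA arrays, against 6.65, 6.72 and 6.85 on the DEX arrays (0.59 ± 0.074, adjusted p = 2.29e-04). The AP-1 subunits JUNB and FOSL2 were higher with MPA too, JUNB by 0.37 ± 0.048 and FOSL2 by 0.35 ± 0.046. KLF4 was higher by 0.32 ± 0.064 and KLF6 by 0.29 ± 0.053, and with KLF9 they made up the 3 called among 17 Kruppel-like factors. EGR1 and DUSP5 were the other higher genes, and both depended on single arrays, DUSP5 as given above. EGR1 (0.26 ± 0.054, adjusted p = 0.0122) was not called without MPA array 1, MPA array 3 or DEX array 1, with adjusted p up to 0.0621. MYC, a driver of cell growth, was the 1 lower gene, at -0.20 ± 0.049 (adjusted p = 0.0358). MYC was not called without MPA array 1, MPA array 3, DEX array 2 or DEX array 3, with adjusted p up to 0.154.

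**Figure D5:**
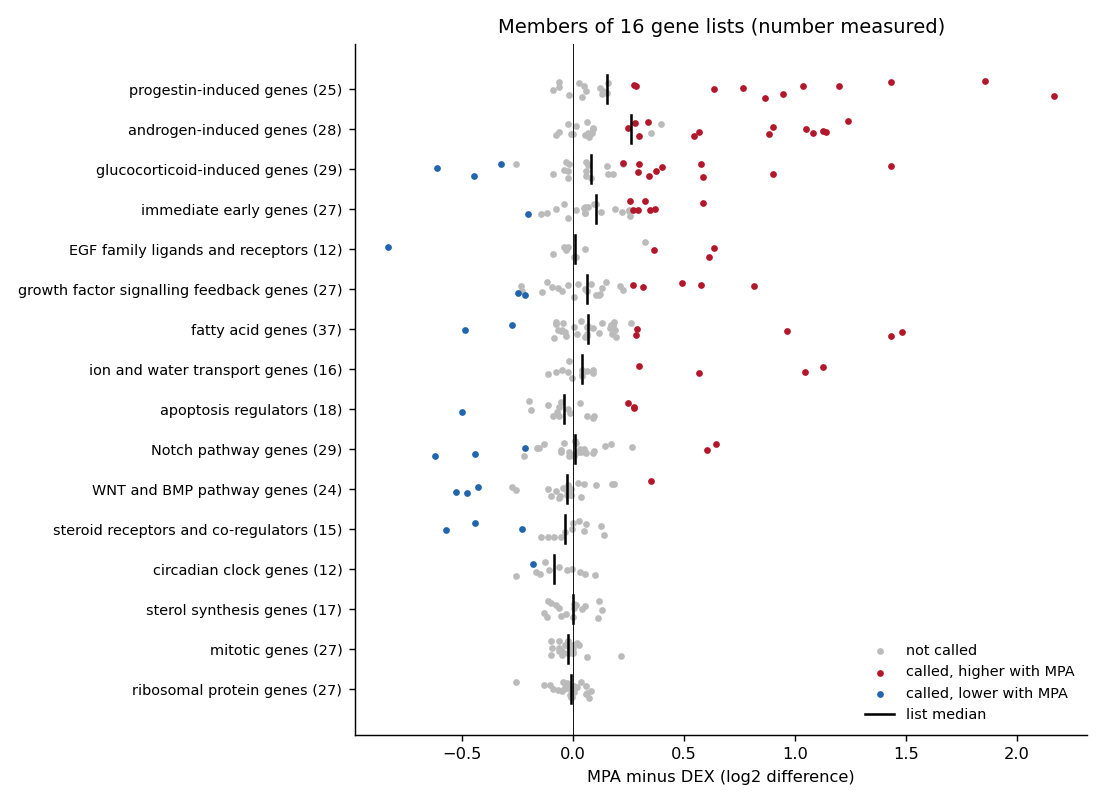
Difference between MPA and DEX (MPA minus DEX, log2) for the measured members of 16 gene lists, 1 point per gene, with a black bar at the list median. The androgen-induced list has the median farthest from 0 among them, at 0.26, and the sterol synthesis, mitotic and ribosomal lists have no called member. Some list members were placed for their response here, so the order of the medians is a description and not a test.

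Of 37 fatty acid genes, 5 were higher with MPA, 2 were lower and 30 were not called, with a median of 0.07. Beside ACSL1 and ACOT6, THRSP, a regulator of fat synthesis, had levels of 5.44, 6.24 and 6.54 on the MPA arrays and 5.25, 4.99 and 5.09 on the DEX arrays. The THRSP arrays under MPA were uneven (0.96 ± 0.19, adjusted p = 0.00792, and 0.143 with the 6 arrays fitted alone). They were all above the DEX arrays, as the choice of genes required. The count of 5 was 3 without DEX array 1 or DEX array 2. The smaller differences were those of the desaturase FADS1 (0.29 ± 0.066), not called when any array but DEX array 3 was left out, and the lipid droplet protein PLIN3 (0.29 ± 0.074), not called without MPA array 1, DEX array 1 or DEX array 2. Those lower with MPA were PNPLA3 and ACACB, a carboxylase that makes malonyl-CoA (-0.27 ± 0.051, adjusted p = 0.00524, and 0.0676 with the 6 arrays fitted alone). Of 21 sphingolipid genes, SGPP2 and SGMS1, a sphingomyelin synthase, were higher with MPA, SGMS1 by 0.39 ± 0.051 (adjusted p = 2.98e-04), and 19 were not called. Of 17 sterol synthesis genes limma called 0, with 3 at an unadjusted p under 0.05 and differences between -0.13 and 0.13.

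Genes of cell contact and guidance came next. Of 31 axon guidance receptors and ligands, 5 were higher with MPA (UNC5B, EFNA5, EFNA1, EPHA7 and NRP1), 2 were lower (EPHA4 and AMIGO2) and 24 were not called. EFNA5, an ephrin ligand, was higher by 0.37 ± 0.065 (adjusted p = 0.00395, and 0.0743 with the 6 arrays fitted alone). NRP1 was not called when any one of the 6 arrays was left out (0.0627 to 0.146). EPHA7 had means of 3.62 with MPA and 3.32 with DEX, both under the array medians. The count of higher genes was 3 without DEX array 1, and 1 lower gene was called without MPA array 1, DEX array 1 or DEX array 2. Of 26 claudins and tight junction genes, CLDN8 and MARVELD3 were higher with MPA and 24 were not called, and 1 was called without MPA array 2, MPA array 3, DEX array 1 or DEX array 2. Of 16 ion and water transport genes, 4 were higher with MPA. CA2, a carbonic anhydrase, was among them, with levels of 7.47, 7.53 and 7.52 on the MPA arrays and 6.97, 6.95 and 6.89 on the DEX arrays (0.57 ± 0.049, adjusted p = 4.84e-06).

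Notch pathway genes were called in both directions, 2 higher with MPA and 3 lower of 29 measured, with a median of 0.01. NOTCH2, a receptor, had levels of 11.22, 11.09 and 11.12 on the MPA arrays, against 10.50, 10.51 and 10.48 on the DEX arrays (0.65 ± 0.046, adjusted p = 9.21e-07). JAG1, a ligand, had levels of 4.91, 4.81 and 4.90 on the MPA arrays, against 4.33, 4.36 and 4.12 on the DEX arrays (0.60 ± 0.12, adjusted p = 0.00756). In contrast to that receptor and ligand, the target genes HEY2 and NRARP were lower with MPA, NRARP at -0.44 ± 0.085 (adjusted p = 0.00701), and so was the receptor NOTCH3, at -0.22 ± 0.047 (adjusted p = 0.0167, and up to 0.0741 without MPA array 3, DEX array 2 or DEX array 3).

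WNT and BMP pathway genes were mostly lower with MPA where called, 3 against 1 higher of 24 measured, with a median of -0.03. BMP4, a secreted ligand, had levels of 4.08, 3.91 and 4.10 on the MPA arrays and 4.45, 4.54 and 4.53 on the DEX arrays, under a vehicle mean of 4.73 (-0.48 ± 0.054, adjusted p = 9.23e-05). AXIN2, a feedback inhibitor that WNT signals induce, was lower, at -0.43 ± 0.084 (adjusted p = 0.00781), and BAMBI was the remaining lower gene. LEF1, a transcription factor of the WNT pathway, was higher with MPA (0.35 ± 0.074, adjusted p = 0.0131), and that 1 call was lost without MPA array 2 (0.0595), DEX array 2 (0.0677) or DEX array 3 (0.063).

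Chemokine and cytokine receptors were also called in both directions, 2 higher and 2 lower of 22. ACKR3, a scavenging receptor for the chemokine CXCL12, had levels of 6.12, 5.92 and 6.22 on the MPA arrays, against 5.24, 5.17 and 5.27 on the DEX arrays (0.86 ± 0.096, adjusted p = 7.28e-05). CXCR4, the signalling receptor for the same chemokine, had levels of 4.17, 4.45 and 4.68 on the MPA arrays and 5.04, 4.83 and 5.06 on the DEX arrays (-0.54 ± 0.12, adjusted p = 0.0154). One receptor was thus higher and the other lower with MPA, but the CXCR4 call was lost without MPA array 1 (0.0631), DEX array 1 (0.0631) or DEX array 3 (0.0716), which leaves 1 lower gene. PRLR, the prolactin receptor, was higher with MPA by 0.33 ± 0.049 (adjusted p = 9.8e-04), and IL4R was lower, at -0.25 ± 0.046 (adjusted p = 0.0047, and 0.0535 with the 6 arrays fitted alone).

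Among 18 apoptosis regulators, 3 were higher with MPA, 1 was lower and 14 were not called. BCL2, which blocks cell death, had levels of 8.32, 8.35 and 8.31 on the MPA arrays and 8.82, 8.83 and 8.82 on the DEX arrays. The groups were narrow and separate, with vehicle at 9.01 (-0.50 ± 0.040, adjusted p = 2.66e-06). BCL2L1, another death inhibitor, was higher with MPA by 0.28 ± 0.043 (adjusted p = 0.00125) and CFLAR, an inhibitor of caspase activation, by 0.25 ± 0.045, which was not called with the 6 arrays fitted alone (0.065). PMAIP1, which promotes cell death, was higher at an adjusted p of 0.0407 and missed the threshold when any one of the 6 arrays was left out (0.0533 to 0.159).

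Cell cycle genes differed little. Of 29 genes of the G1-S step and replication, 4 were higher with MPA (CCNE2, E2F1, GINS2 and SLBP), and 2 were called without MPA array 1, MPA array 3 or any one of the DEX arrays. CCNE2, a cyclin of S-phase entry, was higher by 0.35 ± 0.055 (adjusted p = 0.00161) and GINS2, a replication factor, by 0.24 ± 0.043 (adjusted p = 0.00441), and neither was called with the 6 arrays fitted alone (0.0553 for CCNE2 and 0.0578 for GINS2). Of 27 mitotic genes limma called 0, with 2 at an unadjusted p under 0.05. It also called 0 of 27 ribosomal protein genes, with 1 at an unadjusted p under 0.05. Of 14 hypoxia genes, 3 were higher with MPA (NDRG1, DDIT4 and BNIP3) and ANGPTL4 was lower. BNIP3 was not called without MPA array 1 (0.06), MPA array 3 (0.0581) or DEX array 1 (0.0509). Of 12 circadian clock genes 1 was called, NPAS2, lower with MPA at -0.18 ± 0.046 (adjusted p = 0.0451), and that call was lost when any array but DEX array 1 was left out (0.0557 to 0.191). Of 22 NF-kB and inflammatory genes 1 was called, TSLP, at means of 3.29 with MPA and 3.07 with DEX, both under the array medians.

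The remaining lists held few calls. Of 29 BTB zinc finger genes, ZBTB7C and ZBTB10 were higher with MPA. Of 16 genes of the unfolded protein response, ERN1, a sensor of misfolded protein, and CREB3L2 were higher with MPA and CREB3L1 was lower, and 1 higher gene was called when any array but DEX array 2 was left out. None of these 3 was called with the 6 arrays fitted alone. Of 13 genes of extracellular matrix and its proteases, P3H2 and THBS1 were higher with MPA. Of 7 receptor chaperones FKBP5 was higher, and of 6 basal markers EGFR was higher. Limma called 0 of 8 housekeeping genes, with 2 at an unadjusted p under 0.05, 0 of 4 fibroblast markers, with 1, and 0 of 6 blood or endothelial markers, with 0.

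The called genes were nearly all protein-coding. Of 11895 protein-coding genes, 359 were higher with MPA and 218 lower (4.85% called). Of 1294 long non-coding RNA genes, 5 were higher and 9 lower (1.08%), and of 689 microRNA genes, 2 were higher and 3 lower (0.726%). The share called also followed the level, at 0.747% of 5086 genes with a mean under 3.7 and 7.37% of 2973 genes with a mean of 8 or more, and how far level accounts for the difference between gene classes was not tested. The array measures RNA from the microRNA locus and not the mature microRNA. Of the 5 called, 3 had levels above the array medians, and their mature sequences from RefSeq (GRCh38.p14) are shown to identify the products of these loci, with the seed, bases 2 to 8, in capitals. No seed is shared among them.
hsa-miR-21-5p: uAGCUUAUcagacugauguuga
hsa-miR-29c-3p: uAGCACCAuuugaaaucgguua
hsa-miR-181b-5p: aACAUUCAuugcugucggugggu

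MIR21, whose product is abundant in carcinomas, had levels of 9.07, 9.08 and 8.82 on the MPA arrays, against 8.45, 8.38 and 8.51 on the DEX arrays. Both groups were above the vehicle mean of 7.5, and MPA was the higher (0.54 ± 0.084, adjusted p = 0.00129). MIR29C had levels of 8.48, 8.62 and 8.60 on the MPA arrays, against 8.04, 8.19 and 8.14 on the DEX arrays (0.44 ± 0.10, adjusted p = 0.0271), and its call was lost without MPA array 2, MPA array 3, DEX array 1 or DEX array 3, with adjusted p up to 0.102. MIR181B1 had levels of 8.11, 8.05 and 7.98 on the MPA arrays and 8.59, 8.55 and 8.42 on the DEX arrays (-0.47 ± 0.081, adjusted p = 0.00299). The long non-coding host gene of that locus, MIR181A1HG, was lower with MPA as well, at -0.45 ± 0.10 (adjusted p = 0.0206), though not past the threshold without MPA array 1, DEX array 1 or DEX array 3. These genes were named after their values were seen.

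Called genes that are neighbours on a chromosome were counted last. Of 14337 pairs of measured genes next to each other in the RefSeq order, 44 had both genes called, 31 pairs with both higher with MPA, 8 with both lower and 5 in opposite directions. Among single genes, 600 of 14361 were called (4.18%), 367 higher and 233 lower. Whether called genes lie side by side more often than those shares imply was not tested. ESR1, CCDC170 and RMND1 follow each other among the measured genes of chromosome 6, and all were lower with MPA. CCDC170, a microtubule-binding protein, had levels of 5.54, 5.33 and 5.39 on the MPA arrays and 5.85, 5.93 and 6.07 on the DEX arrays (-0.53 ± 0.065, adjusted p = 1.82e-04). RMND1, a mitochondrial protein, had levels of 7.53, 7.48 and 7.52 on the MPA arrays and 8.0, 8.01 and 7.94 on the DEX arrays (-0.47 ± 0.059, adjusted p = 2.07e-04). All 3 genes had their MPA arrays below their DEX arrays, which the choice of genes required of ESR1 and CCDC170. CRISPLD2 and its neighbour KIAA0513 were a pair in opposite directions, KIAA0513 being higher with MPA by 0.70 ± 0.059 (adjusted p = 4.45e-06). RMND1 and KIAA0513 were named after their values were seen.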

How the data were processed

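Per the labels' protocols, total RNA was amplified, labelled with biotin and hybridised to Affymetrix whole-transcript arrays. The deposited values are log2 probe set intensities written to 2 decimals, and the submitters' processing notes name RMA and Partek, with no version. The number of arrays limits the precision. Of 34878 probe sets, the 14841 with 1 gene symbol in the platform annotation were tested (14361 genes, all matched to RefSeq), 20037 have no symbol and 0 have several. No further normalization was applied.

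Levels were fitted with limma 3.58.1 in R 4.3.3, with the 5 group means over all 15 arrays (10 residual degrees of freedom) and the contrast MPA minus DEX. P-values are 2-sided and adjusted by the Benjamini-Hochberg method over the 14841 probe sets, with a threshold of 0.05. A gene with several probe sets is represented by the one with the highest mean over 15 arrays. No fold is given where a group mean is under 3.7, the median of all values.

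Genes are named by rule: the 15 largest called differences in each direction with separate arrays, up to 4 called members of each of 36 gene lists with at least 2 called, and single genes of steroid response. The list members also needed separate arrays, so that separation adds no support for genes named by size or list. The genes and lists were chosen with earlier results of these data known. Genes outside the rule were named after their values were seen. Alternatives tried were the 6 arrays alone, the replicate number as a block, quantile normalization, array weights, a trended robust fit, a filter on dim probe sets, all 34878 probe sets, and each array left out.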

Additional observations from a re-analysis of the deposited data

How the results depend on the processing

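With the 6 MPA and DEX arrays fitted alone, 285 probe sets were called, 215 higher with MPA and 70 lower, and 276 of the 285 were among the 602. This fit has fewer arrays behind its spread. Leaving out each of the 6 arrays in turn gave 422 to 539 called, 287 to 333 higher and 130 to 206 lower, and 335 calls (242 higher, 93 lower) held in all 6 of these fits. The replicate numbers do not pair the arrays: deviations of MPA and DEX arrays with the same number correlated at 0.008, -0.038 and 0.016. With the replicate number as a block, 530 were called, 513 of them shared with the 602. Quantile normalization gave 619, array weights 549, a trended robust fit 741, the dim filter 700 and all 34878 probe sets 461. None of the 602 called differences changed sign under any of these alternatives, counting the 563 tested under the dim filter. Of the 89 called genes named by rule, 73 were called with each of the 6 arrays left out, 25 lost their call with the 6 arrays fitted alone (adjusted p 0.0518 to 0.196), 9 with all probe sets tested, 7 with the block, 2 with array weights and 1 with quantile normalization. Of the other called genes with tabulated values, 16 lost theirs with the 6 arrays alone (0.0532 to 0.229). With 3 arrays a group, differences within the median interval half-width of 0.14 are not resolved, and differences of dim probe sets are compressed.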

Other observations

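The 20037 probe sets with no gene symbol also differed between the compounds. In a fit of all 34878 probe sets, 222 of them were higher with MPA and 103 lower, or 1.62%, against 3.11% of the named probe sets in the same fit. The called differences reached 2.54 and -0.77, and 75 were at least 1.5-fold. Of those called, 30 had a mean level under the median of all values. Without a gene name they entered no comparison above.

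Genes with several named probe sets numbered 405. Of these, 18 had a called probe set, and 0 had more than 1 called. Directions of called probe sets therefore could not be compared within a gene.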
